A study of Mus musculus with 12 samples.

Results

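The genes of the constitutive proteasome were followed in the left ventricle of mice whose aorta was narrowed with a band and then released. The set comprised every gene whose symbol begins with Psma, Psmb, Psmc or Psmd followed by a digit, apart from Psmb8, Psmb9 and Psmb10, which form the immune version of the particle. The array held 37 such genes among 18193 annotated genes, with 76 probe sets. Where a gene had several, the one brightest on average across the 12 arrays stood for it. A gene was tested where that log2 signal was above 4 on at least 3 arrays, which kept 35 of the 37 members. These were 14 subunits of the core particle, 17 subunits of the regulatory particle, the assembly chaperones Psmd5, Psmd9 and Psmd10, and Psmc3ip, which shares the letters but codes for a factor of meiotic recombination. Psma8, a testis form of a core subunit, lay between 2.32 and 3.19 on the log2 scale and Psmb11, a thymus form, between 2.23 and 2.25, so neither was tested.

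The mice were male and of the C57BL/6 strain, with the first operation at 7 weeks of age, and each of the 4 groups had 3 mice with 1 array each. AB mice were studied 4 weeks after aortic banding, and sAB mice 4 weeks after a sham operation. DB3 mice were banded for 4 weeks and studied 3 days after a debanding operation, and sDB3 mice were shams studied at the same time. The labels call the sDB3 group sham and debanding together, so whether its second operation was itself a sham is not certain from them. All groups had surgery, the DB3 and sDB3 mice had a further operation, and the labels name no transgene or drug. Arrays are numbered 1 to 3 within a group, and the numbers pair nothing. RNA came from whole left ventricle, cut away from the right ventricle and the atria, so that fewer cells of a type and less RNA per cell cannot be told apart.

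The proteasome degrades proteins that carry ubiquitin chains. Its core particle is a barrel of stacked rings: the outer rings of alpha subunits (Psma genes) gate the entrance, and the inner rings of beta subunits (Psmb genes) hold the proteolytic sites of Psmb5, Psmb6 and Psmb7. The regulatory particle sits on the end of the barrel, where the ATPases Psmc1 to Psmc6 and the base subunits Psmd1, Psmd2 and Psmd4 bind and unfold the substrate and the lid, built around Psmd14, removes its ubiquitin. Cardiomyocytes depend on this system for the turnover of contractile proteins, and the growth of the ventricle under load changes the rate at which proteins are made and removed.

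Values are log2 signals of a probe set, which compare arrays for the same gene and not genes with each other. Differences are on the log2 scale with the standard error (SE) of the model, and "passed" means a limma p-value under 0.05 after Benjamini-Hochberg adjustment over the 10435 genes tested. Array profiles correlated at 0.9955 to 0.9983 within groups and at 0.9933 to 0.9969 between groups. The bacterial control BioC, added before hybridisation, had a mean log2 signal of 9.82 to 10.15 on the sAB arrays and 7.73 to 8.23 on the other 9 arrays. Another bacterial control, BioB, did not show this split, with 8.22 to 8.72 on the sAB arrays and 7.99 to 8.53 on the others. In comparisons with sAB a technical difference of these arrays and the group cannot be told apart, and for this reason AB was also compared with sDB3. The excess of the Actb 3′ over the 5′ probe sets, a measure of RNA integrity, was 1.02 to 1.13 on the AB arrays and 1.11 to 1.32 on the rest. The 7 cardiomyocyte markers had a mean log2 signal of 15.38 to 15.59 on all arrays. Means of the 5 fibroblast markers were 10.64 to 11.00 in AB and 9.85 to 10.61 over the other groups, and means of the 6 endothelial markers were 9.32 to 9.39 in AB and 8.95 to 9.26 over the other groups. The mean of the 4 atrial markers ranged from 6.77 to 12.4 over the arrays, with 7.80 to 9.50 in sAB, 10.2 to 12.1 in AB, 10.1 to 12.3 in sDB3 and 6.77 to 12.4 in DB3, although the atria were cut away. In AB against sAB, 2 of 5 fibroblast, 2 of 6 endothelial and 2 of 6 smooth muscle and pericyte markers rose. Of the 6 macrophage markers 1 rose (Cx3cr1), and the other 5 differences were negative (median of the 6, -0.31). Of the 4 atrial markers 1 rose, Nppa, with a mean of 12.71 in sAB and 15.10 in AB. All 4 differences were positive, but Nppa alone had an unadjusted limma p under 0.05. Of the 7 cardiomyocyte markers 0 passed, with 2 at an unadjusted limma p under 0.05. The markers of blood (1 of 3 tested), skeletal muscle (2 of 4) and adipose tissue (1 of 4) gave 1 call in that comparison, a skeletal muscle gene that fell. In AB against sDB3, 2 of 7 cardiomyocyte markers fell (all 7 differences were negative), and 3 of 6 endothelial markers rose. So did 2 of 6 smooth muscle and pericyte markers and 1 of 6 macrophage markers. Of the 4 atrial markers 1 rose there (Nppa), and the other 3 differences were negative (median of the 4, -0.71). The part of these markers in the differences below was not tested.

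The members' transcripts moved little: their differences that passed lay between -0.36 and 0.42 on the log2 scale. In AB against sAB, 4 of the 35 members were higher and 2 lower, while 12% of all genes were higher and 7.69% lower. In DB3 against sDB3, 2 members were higher and 0 lower, beside 5.37% and 0.997% of all genes. In AB against sDB3, 6 members were higher and 0 lower, beside 17.3% and 4.69% of all genes. In DB3 against AB, 0 members were higher and 2 lower, beside 4.04% and 5.12% of all genes. In sDB3 against sAB, the comparison of the shams, 1 member was higher and 7 lower, beside 5.49% and 12.3% of all genes. On the probe sets used, the difference between the effect of DB3 over sDB3 and the effect of AB over sAB passed for 0 members in either direction. Of all genes, 3.45% had a more positive effect and 2.59% a more negative effect. Another probe set of Psma7 did pass for this difference, as given with that gene. At an unadjusted limma p under 0.05, 9 members differed in AB against sAB (33.8% of all genes), 7 in DB3 against sDB3 (25.9%), 16 in AB against sDB3 (36.6%), 8 in DB3 against AB (24.7%), 10 in sDB3 against sAB (34.8%), and for the difference of effects 6 did (24.2%). An F test over the 4 groups passed for 11 members, beside 37.2% of all genes. With trended and robust moderation, and with none, AB against sDB3 had 12 and 11 members higher and 1 lower in each, DB3 against sDB3 had 1 lower in each, and the F test passed for 18 and 17. Every member that passed a comparison had no overlap between the arrays of its groups. The share of all passing genes without overlap is not given, and the calls come from the same arrays, so this is no further support for them. The split of calls depended on the scaling: with each array centred on its median, genes higher and lower went from 560 and 104 to 137 and 329 in DB3 against sDB3, from 1809 and 489 to 809 and 1218 in AB against sDB3, from 1256 and 802 to 1038 and 1171 in AB against sAB, from 573 and 1288 to 893 and 589 in sDB3 against sAB, and from 360 and 270 to 171 and 393 in the difference of effects. Under that centring the members that passed were Psmd3 and Psmd7 (higher) and Psma1, Psma7 and Psmd10 (lower) in AB against sAB, Psmb7 (lower) in DB3 against sDB3, Psmd8 (higher) and Psmb7 and Psmc3ip (lower) in AB against sDB3, Psmd8 (lower) in DB3 against AB, and Psmb7 and Psmd3 (higher) and Psmd5 (lower) in sDB3 against sAB. Leaving out single arrays moved the count of higher members in AB against sAB between 1 and 4, and in AB against sDB3 between 1 and 7; the arrays that decide each call are named with the gene.

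**Figure D1:**
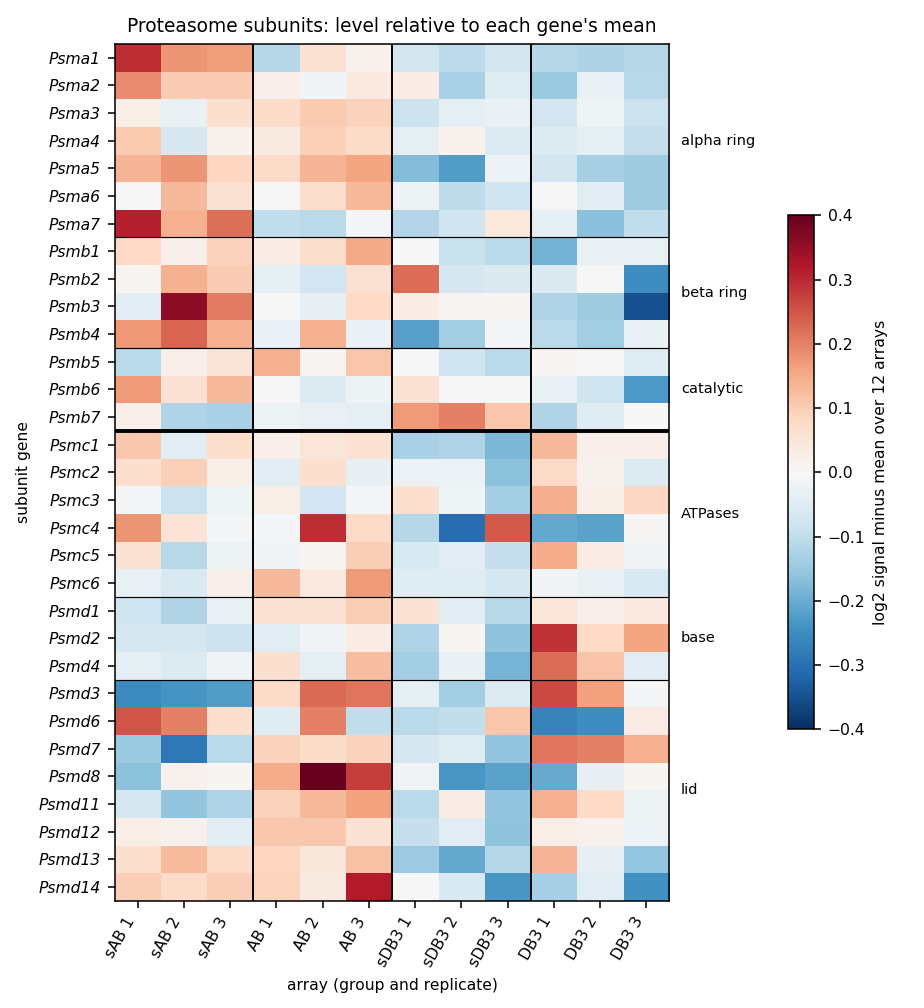
Log2 signal of each of the 14 core and 17 regulatory subunit genes on each of the 12 arrays, as the difference from that gene's own mean over the 12 arrays (colour scale from -0.4 to 0.4). Rows are grouped by role, with a thick line between core and regulatory particle, and columns by group; the core rows are mostly warm in sAB and cool in DB3, and the lid rows Psmd3, Psmd7, Psmd8 and Psmd11 are warm in AB.

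Among the catalytic subunits, 0 of 3 passed in AB against sAB, with 0 at an unadjusted limma p under 0.05, and 0 in DB3 against sDB3, with 1 at that level (Psmb7). Psmb5, the chymotrypsin-like site, had log2 signals of 11.85, 11.98 and 12.01 in sAB, 12.10, 11.97 and 12.07 in AB, 11.96, 11.88 and 11.85 in sDB3, and 11.97, 11.96 and 11.91 in DB3. Its difference was 0.10 ± 0.066 (SE, n = 3 against 3) in AB against sAB (adjusted p = 0.307) and 0.049 ± 0.066 in DB3 against sDB3 (adjusted p = 0.669), with overlapping groups in both. Psmb6, the caspase-like site, had 12.03, 11.92 and 11.99 in sAB, 11.86, 11.81 and 11.84 in AB, 11.92, 11.86 and 11.86 in sDB3, and 11.83, 11.78 and 11.63 in DB3. Its banded and debanded arrays lay below their own shams without overlap, by -0.14 ± 0.066 (95% confidence interval -0.29 to 0.0011, adjusted p = 0.151) and -0.13 ± 0.066 (-0.28 to 0.013, adjusted p = 0.237), which did not pass.

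Psmb7, the trypsin-like site, was high in the debanded shams. Its log2 signals were 12.80, 12.83 and 12.74 in sDB3, and 12.65, 12.51 and 12.50 in sAB, 12.61, 12.60 and 12.59 in AB, and 12.51, 12.58 and 12.63 in DB3. All 3 sDB3 arrays lay above the other 9 arrays, and Psmb7 was the only member that rose in sDB3 against sAB, by 0.24 ± 0.063 (adjusted p = 0.0293). Its difference was -0.22 ± 0.063 in DB3 against sDB3 (adjusted p = 0.0666) and -0.19 ± 0.063 in AB against sDB3 (adjusted p = 0.0541). With each array centred on its median, both of these passed (adjusted p = 0.0354 and 0.0137), and with quantile normalization neither did (0.0861 and 0.0904). The rise over sAB was lost without sAB 2, sAB 3, sDB3 1 or sDB3 2 (adjusted p up to 0.0905).

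The mean of the alpha ring was highest in sAB, but not that of every gene in it. Psma3, Psma4 and Psma6 had means of 12.44, 11.29 and 12.42 in AB and slightly lower means of 12.37, 11.24 and 12.41 in sAB. All 7 alpha genes had a negative difference in sDB3 against sAB (median -0.17), while 34.4% of all genes had a positive one (median -0.094). Of the 7, 3 passed as lower there, beside 12.3% of all genes. Centring the arrays on their medians left 5 of the 14 core genes positive there, against 1 without it. Psma7 had log2 signals of 11.22, 11.05 and 11.13 in sAB, 10.81, 10.80 and 10.90 in AB, 10.79, 10.83 and 10.95 in sDB3, and 10.87, 10.74 and 10.81 in DB3. All 3 sAB arrays stood above the other 9. Psma7 fell in AB against sAB, by -0.29 ± 0.071 (a fold of 0.815, adjusted p = 0.0159), and in sDB3 against sAB, by -0.28 ± 0.071 (adjusted p = 0.0243), while AB and sDB3 differed by -0.016 ± 0.071 (adjusted p = 0.897). The other probe set of Psma7 gave -0.42 in AB against sAB (adjusted p = 0.00151 over all probe sets) and -0.43 in sDB3 against sAB (adjusted p = 0.0025). For the difference of effects that probe set passed, at 0.50 (adjusted p = 0.0161 over all probe sets), and the one used gave 0.25 (0.181). The call in AB against sAB was lost without sAB 1 or AB 2 (adjusted p up to 0.0609), and the call in sDB3 against sAB without sAB 1, sAB 3, sDB3 1 or sDB3 2 (up to 0.0724) and with median centring (0.105).

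Psma1 showed the same split between sAB and the other groups. Its log2 signals were 12.03, 11.91 and 11.90 in sAB, 11.62, 11.79 and 11.75 in AB, 11.66, 11.63 and 11.66 in sDB3, and 11.62, 11.61 and 11.62 in DB3. It fell by -0.23 ± 0.064 in AB against sAB (a fold of 0.851, adjusted p = 0.0278) and by -0.30 ± 0.064 in sDB3 against sAB (adjusted p = 0.0122). AB and sDB3 overlapped, with a difference of 0.068 ± 0.064 (adjusted p = 0.472). Averaged with its other probe set, which is dim (mean log2 signal 4.05), Psma1 passed in neither (adjusted p = 0.455 and 0.451). The call in AB against sAB was lost without sAB 1, AB 1 or AB 3 (adjusted p up to 0.0965), and the call between the shams held without any single array (up to 0.038) but was lost with median centring and with only the groups compared.

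On the probe set used, Psma5 was lower in both groups studied after the second operation. It had 11.50, 11.54 and 11.45 in sAB and 11.44, 11.50 and 11.52 in AB, against 11.19, 11.14 and 11.34 in sDB3 and 11.29, 11.23 and 11.22 in DB3. The 6 arrays of mice without the second operation all lay above the 6 arrays with it. AB against sAB gave -0.0083 ± 0.066 (adjusted p = 0.945) and DB3 against sDB3 gave 0.017 ± 0.066 (adjusted p = 0.898). Psma5 fell by -0.27 ± 0.066 in sDB3 against sAB (adjusted p = 0.0216) and by -0.24 ± 0.066 in DB3 against AB (adjusted p = 0.0443), and AB was above sDB3 by 0.26 ± 0.066 (adjusted p = 0.0195). The call in DB3 against AB was lost without 10 of the 12 arrays (all but sDB3 2 and sDB3 3, adjusted p up to 0.152). The call between the shams was lost without sAB 2, sDB3 1 or sDB3 2 (up to 0.0715) and with median centring (0.0868), and that of AB against sDB3 without AB 2, AB 3, sDB3 1 or sDB3 2 (up to 0.0752). With quantile normalization or median centring, AB against sDB3 had an adjusted p of 0.0512 and 0.203, and DB3 against AB of 0.0595 and 0.0522. The other probe set of Psma5 did not show the split between the first and second operation: it gave 0.20 in AB against sAB (adjusted p = 0.0883 over all probe sets) and -0.11 in sDB3 against sAB (0.319), with 0.32 in AB against sDB3 (0.018) and -0.27 in DB3 against AB (0.0574).

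The other alpha genes, Psma2, Psma3, Psma4 and Psma6, passed in no comparison. Of the beta subunits without a proteolytic site, Psmb1, Psmb2 and Psmb3 also passed in none. Psmb4 had 13.26, 13.32 and 13.23 in sAB, 13.06, 13.23 and 13.06 in AB, 12.87, 12.95 and 13.08 in sDB3, and 12.98, 12.95 and 13.06 in DB3. It fell in sDB3 against sAB, by -0.30 ± 0.075 (adjusted p = 0.0222), a call lost without sAB 2, sDB3 1 or sDB3 2 (up to 0.0682) and with median centring (0.11). In DB3 against AB, all 14 core genes had a negative difference, from -0.24 to -0.027 (median -0.12, beside -0.017 over all genes), but Psma5 alone passed. Over all genes 46.2% of differences were positive there.

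In the regulatory particle the calls fell mostly on the lid. Of the 8 lid genes, 1 rose in DB3 against sDB3 (Psmd7), beside 5.37% of all genes. In AB against sAB 4 rose (Psmd3, Psmd7, Psmd8 and Psmd11), beside 12% of all genes. In AB against sDB3 4 rose (Psmd3, Psmd8, Psmd12 and Psmd13), beside 17.3% of all genes. The comparisons of AB with a sham share the AB arrays. In AB against sDB3, endothelial markers rose (3 of 6) and cardiomyocyte markers fell (2 of 7) beside these lid genes. Of the 6 ATPase genes, 0 passed in any comparison of groups, with 1 at an unadjusted limma p under 0.05 in AB against sAB (Psmc6, 0.14 ± 0.057) and 1 in DB3 against sDB3 (Psmc1, 0.20 ± 0.062, adjusted p = 0.0788).

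Psmd3, a scaffold subunit of the lid, gave the largest difference of any member in AB against sAB. Its log2 signals were 9.57, 9.59 and 9.60 in sAB, 9.90, 10.05 and 10.04 in AB, 9.79, 9.69 and 9.77 in sDB3, and 10.09, 9.99 and 9.82 in DB3. All banded and debanded arrays lay above all sham arrays. Psmd3 rose by 0.41 ± 0.076 in AB against sAB (a fold of 1.33, adjusted p = 0.00467), and this held without any single array (up to 0.0235). It rose by 0.24 ± 0.076 in AB against sDB3 (adjusted p = 0.0426), which was lost without any array other than AB 1, DB3 1 and DB3 3 (up to 0.136), and with either other scaling (up to 0.298). In DB3 against sDB3 its 0.22 ± 0.076 did not pass (adjusted p = 0.112).

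Psmd7, the partner of the deubiquitinase Psmd14, rose against the matched sham in both banded states. It had 10.50, 10.36 and 10.54 in sAB, 10.74, 10.72 and 10.74 in AB, 10.58, 10.60 and 10.49 in sDB3, and 10.86, 10.85 and 10.79 in DB3. The DB3 arrays were the highest, followed by AB, and the shams overlapped each other. The difference was 0.27 ± 0.065 in AB against sAB (a fold of 1.21, adjusted p = 0.0159) and 0.27 ± 0.065 in DB3 against sDB3 (adjusted p = 0.0392), comparisons that share no array. The first was lost without sAB 2 or AB 3 (up to 0.0547), and the second without any of the AB, sDB3 or DB3 arrays (up to 0.096) and with quantile normalization or median centring (adjusted p = 0.0851 and 0.208).

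Psmd8, the subunit that completes the lid during its assembly, was high in AB alone. It had 10.77, 10.95 and 10.94 in sAB, 11.08, 11.33 and 11.21 in AB, 10.92, 10.70 and 10.72 in sDB3, and 10.73, 10.90 and 10.94 in DB3. The AB arrays lay above the other 9. Psmd8 rose by 0.32 ± 0.095 in AB against sAB (a fold of 1.25, adjusted p = 0.0372) and by 0.42 ± 0.095 in AB against sDB3 (a fold of 1.34, adjusted p = 0.0117), and fell by -0.35 ± 0.095 in DB3 against AB (adjusted p = 0.0437). These contrasts share the AB arrays. The rise over sDB3 held without any single array (up to 0.0492). The rise over sAB was lost without any of the sAB arrays, AB 2 or AB 3 (up to 0.131) and with median centring (adjusted p = 0.0579), and the fall in DB3 without sAB 2, sAB 3, AB 2, AB 3, sDB3 3 or any DB3 array (up to 0.158).

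Psmd11, which bridges the lid to the alpha ring of the core, had 11.51, 11.42 and 11.46 in sAB, 11.67, 11.71 and 11.74 in AB, 11.47, 11.61 and 11.42 in sDB3, and 11.72, 11.66 and 11.56 in DB3. AB lay above both shams, and DB3 overlapped sDB3. It rose by 0.24 ± 0.070 in AB against sAB (adjusted p = 0.033), a call lost without any of the 6 arrays compared (up to 0.109) and with median centring (adjusted p = 0.0949), and the difference in AB against sDB3 was 0.21 ± 0.070 (adjusted p = 0.0554). Of its 4 probe sets above the limit, 3 gave a positive difference in AB against sAB (0.18, 0.24 and 0.58) and the other gave -0.019. The probe set with 0.58 also rose in sDB3 against sAB, by 0.43 (adjusted p = 0.0243 over all probe sets). In AB against sDB3 it gave 0.15 (0.362).

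Psmd12, a lid scaffold, had 11.63, 11.68 and 11.56 in sDB3 and 11.83, 11.83 and 11.78 in AB, beside 11.75, 11.74 and 11.68 in sAB and 11.75, 11.74 and 11.70 in DB3. It rose by 0.19 ± 0.057 in AB against sDB3 (adjusted p = 0.0363), a call lost without any AB array, sDB3 1, sDB3 3 or DB3 2 (up to 0.104) and with either other scaling (up to 0.594). Psmd13, another lid scaffold, was low in sDB3, with 8.79, 8.73 and 8.82, against 9.00, 9.06 and 9.01 in sAB, 9.02, 8.98 and 9.05 in AB, and 9.07, 8.90 and 8.78 in DB3. The AB and sAB arrays of Psmd13 overlapped and both lay above sDB3. AB was above sDB3 by 0.23 ± 0.075 (adjusted p = 0.0469), and Psmd13 fell in sDB3 against sAB by -0.25 ± 0.075 (adjusted p = 0.0457). Each call was lost without 10 of the 12 arrays (all but DB3 1 and DB3 3, up to 0.141 and 0.129), and with either other scaling (up to 0.344 and 0.148). On the probe sets used, Psmd6 and the deubiquitinase Psmd14 passed in no comparison. The other probe set of Psmd6 was higher in AB against sDB3, by 0.19 (adjusted p = 0.0467 over all probe sets), where the one used gave 0.054 (0.77). In AB against sAB they gave 0.16 (0.0874) and -0.15 (0.38), of opposite sign.

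In the base, Psmd2, which docks ubiquitin shuttles, was highest after debanding. Its log2 signals were 11.65, 11.65 and 11.64 in sAB, 11.68, 11.71 and 11.75 in AB, 11.60, 11.73 and 11.56 in sDB3, and 12.01, 11.80 and 11.88 in DB3. The DB3 arrays lay above the other 9, and Psmd2 rose by 0.27 ± 0.070 in DB3 against sDB3 (a fold of 1.20, adjusted p = 0.0498). This was lost without any of the 12 arrays, taken singly (0.0578 to 0.133), and with quantile normalization or median centring (adjusted p = 0.095 and 0.288). Psmd1 and the ubiquitin receptor Psmd4 passed in no comparison.

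The assembly chaperones differed between the shams. Psmd5, which holds ATPases before the base is complete, had 7.85, 7.82 and 7.96 in sAB, 7.77, 7.78 and 7.77 in AB, 7.43, 7.58 and 7.53 in sDB3, and 7.74, 7.66 and 7.54 in DB3. It was lowest in sDB3, where it fell by -0.36 ± 0.072 against sAB (a fold of 0.779, adjusted p = 0.00962), and this held without any single array (up to 0.0335). AB was above sDB3 by 0.26 ± 0.072 (adjusted p = 0.0275), lost without any AB array or sDB3 1 (up to 0.0839) and with either other scaling (up to 0.264). Psmd10, also a chaperone of the base, had 7.99, 7.99 and 7.96 in sAB against 7.60, 7.71 and 7.78 in sDB3, and fell by -0.28 ± 0.086 (adjusted p = 0.0456). Its AB arrays, at 7.57, 7.76 and 7.81, lay below sAB too, by -0.27 ± 0.086 (adjusted p = 0.0512). The call between the shams was lost without any array other than AB 1, sDB3 3, DB3 1 and DB3 3 (up to 0.13) and with 5 of the 8 other settings, both other scalings among them (up to 0.154). Psmd9 and Psmc3ip passed in no comparison.

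**Figure D2:**
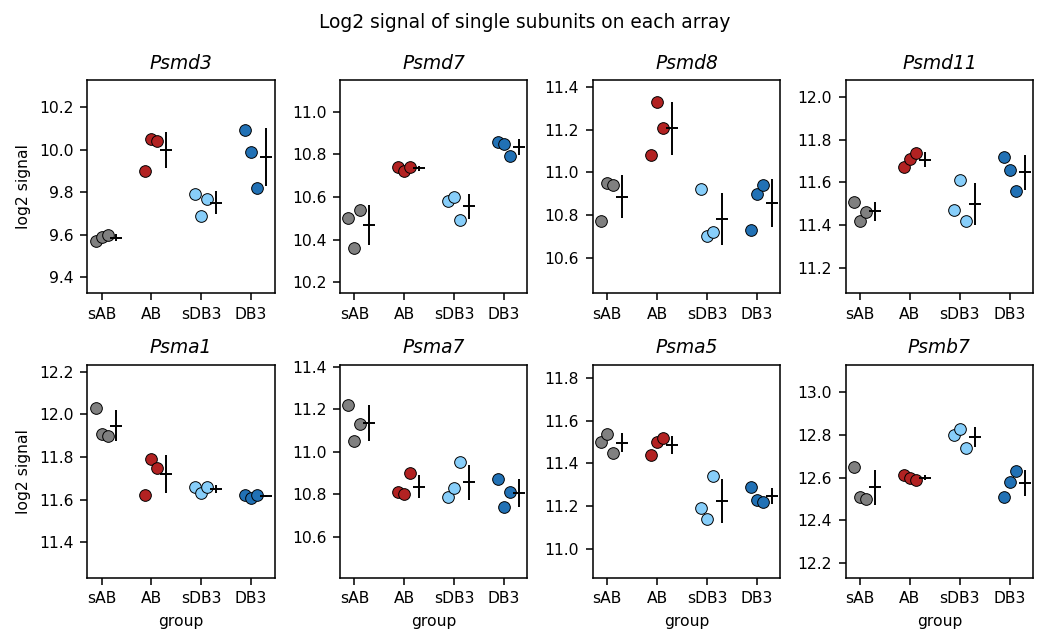
Log2 signal (vertical axis, each panel 1 unit high) of 8 subunit genes on each array, by group; points are arrays, and the dash and bar beside them are the group mean and SD (n = 3). Psmd3 lies higher on all AB and DB3 arrays than on all sham arrays, Psmd8 is high in AB only, Psma1 and Psma7 are high in sAB only, and Psma5 is high in sAB and AB.

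Promoters of members that moved in opposite directions in AB against sAB are shown next, so that the letters in front of Psma1 and Psma7 can be set beside those of Psmd8 and Psmd11, with Psmb5 added as a catalytic subunit that holds the motif of the antioxidant response element. Each is the 250 bases before the start site, 5′ to 3′ on the gene's strand, from RefSeq on build GRCm38.p6. The positions are chr7:114276117-114276366 (minus strand) for Psma1, chr2:180042465-180042714 (minus) for Psma7, chr7:29180674-29180923 (minus) for Psmd8, chr11:80428365-80428614 (plus) for Psmd11 and chr14:54617996-54618245 (minus) for Psmb5. Capitals mark CCAAT, the box bound by NF-Y, and TGACNNNGC, the core of the antioxidant response element bound by the proteasome regulator Nfe2l1, on either strand.
Psma1: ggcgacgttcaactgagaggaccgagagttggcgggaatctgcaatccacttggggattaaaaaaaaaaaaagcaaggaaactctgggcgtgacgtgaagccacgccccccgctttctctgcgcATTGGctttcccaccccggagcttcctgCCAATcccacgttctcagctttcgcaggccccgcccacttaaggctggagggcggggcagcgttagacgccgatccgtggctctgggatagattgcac
Psma7: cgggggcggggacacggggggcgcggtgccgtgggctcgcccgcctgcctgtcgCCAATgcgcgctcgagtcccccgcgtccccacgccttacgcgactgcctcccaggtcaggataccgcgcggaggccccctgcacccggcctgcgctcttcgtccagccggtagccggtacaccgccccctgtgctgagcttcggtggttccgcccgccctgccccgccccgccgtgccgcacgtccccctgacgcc
Psmd8: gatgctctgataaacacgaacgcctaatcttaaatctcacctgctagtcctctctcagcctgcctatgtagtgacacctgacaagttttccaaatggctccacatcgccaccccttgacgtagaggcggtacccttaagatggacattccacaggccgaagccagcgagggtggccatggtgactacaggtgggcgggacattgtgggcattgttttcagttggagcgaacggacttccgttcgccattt
Psmd11: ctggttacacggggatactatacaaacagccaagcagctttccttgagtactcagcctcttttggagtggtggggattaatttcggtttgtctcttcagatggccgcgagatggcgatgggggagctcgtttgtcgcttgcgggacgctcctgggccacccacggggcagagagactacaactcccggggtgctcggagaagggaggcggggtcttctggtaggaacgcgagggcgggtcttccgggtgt
Psmb5: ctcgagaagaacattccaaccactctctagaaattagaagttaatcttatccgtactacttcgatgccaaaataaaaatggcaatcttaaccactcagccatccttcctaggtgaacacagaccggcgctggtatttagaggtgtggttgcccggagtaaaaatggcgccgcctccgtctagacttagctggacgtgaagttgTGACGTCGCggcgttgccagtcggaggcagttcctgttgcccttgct

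Psma1 holds 2 CCAAT boxes in this window and Psma7 holds 1, while Psmd8 and Psmd11 hold 0 matches of either motif, which says only that those letters are not in these windows. Promoters of 25 of the 31 core and regulatory genes were matched in the RefSeq table, 11 core and 14 regulatory. CCAAT occurred in 6 of the 11 core and 4 of the 14 regulatory promoters, 40% of the 25 together, beside 37.5% of 27025 genes with a promoter in the table. TGACNNNGC occurred in 4 of the 25 (16%), those of Psmb5, Psmb6, Psmd12 and Psmc6, beside 11.5% of all genes. These are matches of letters and not measured binding.

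Relative to the shams, core genes lay lower against regulatory genes in the banded and debanded hearts. In AB against sAB, 6 of 14 core genes had a positive difference (median -0.056) and 13 of 17 regulatory genes did (median 0.071). Over all genes 52.1% of differences were positive there, with a median of 0.012. In DB3 against sDB3, 69.2% of differences over all genes were positive, with a median of 0.091. There, 4 of 14 core genes (median -0.033) and 14 of 17 regulatory genes (median 0.11) were positive. Most of these single differences did not pass, and their signs move with the scaling of the arrays: centring each array on its median moved the median gene by -0.049 in the first comparison and by -0.12 in the second, and left 2 core and 11 regulatory genes positive in the first and 0 and 8 in the second.

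**Figure D3:**
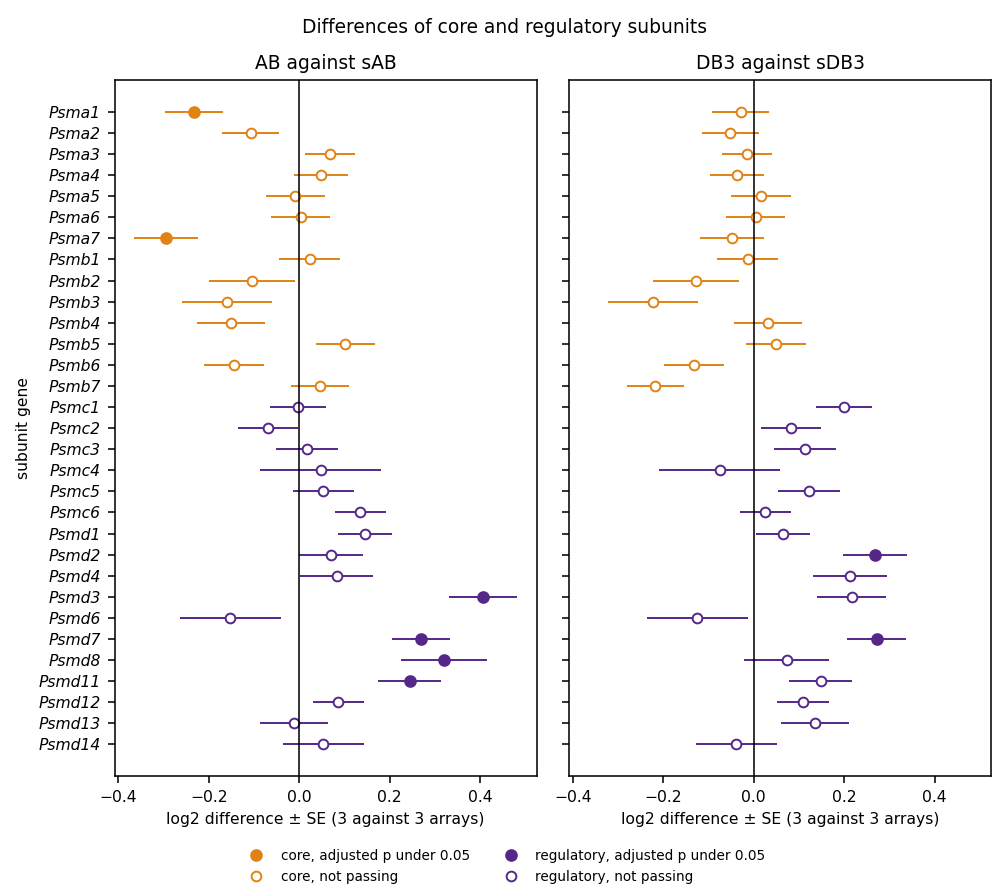
Log2 difference of each core (orange) and regulatory (violet) subunit gene in AB against sAB (left) and DB3 against sDB3 (right), with bars for the SE (3 against 3 arrays); filled points passed at an adjusted p under 0.05. In AB against sAB the filled points are 4 lid genes to the right of 0 and 2 alpha genes to its left, and in DB3 against sDB3 they are Psmd2 and Psmd7, both positive.

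The mean of the core genes minus the mean of the regulatory genes, each gene taken relative to its own mean over the 12 arrays, does not depend on any constant added to an array. This measure was chosen after the values were seen, and no test of it is given. It was 0.096, 0.13 and 0.11 on the sAB arrays and 0.049, 0.024 and 0.077 on the sDB3 arrays. It was -0.042, -0.066 and -0.045 on the AB arrays and -0.14, -0.081 and -0.12 on the DB3 arrays. All 6 sham arrays lay above 0 and all 6 arrays of banded or debanded hearts below it. The group means differed by -0.16 in AB against sAB (-0.17 to -0.15 without any single array) and by -0.16 in DB3 against sDB3 (-0.18 to -0.15), comparisons that share no array. Against the other sham, AB differed by -0.10. The shams differed by -0.063 and DB3 from AB by -0.061, which are larger than the SD of 0.013 to 0.030 within the groups. Core minus ATPases was 0.033 to 0.12 on the sham arrays, -0.033 to -0.0024 in AB and -0.13 to -0.046 in DB3. Core minus lid was 0.039 to 0.13 on the sham arrays, -0.12 to -0.073 in AB and -0.10 to -0.084 in DB3. The lid mean was -0.028 in sAB and 0.12 in AB, and the ATPase mean 0.017 and 0.047. The share of each part in the gap was not tested.

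**Figure D4:**
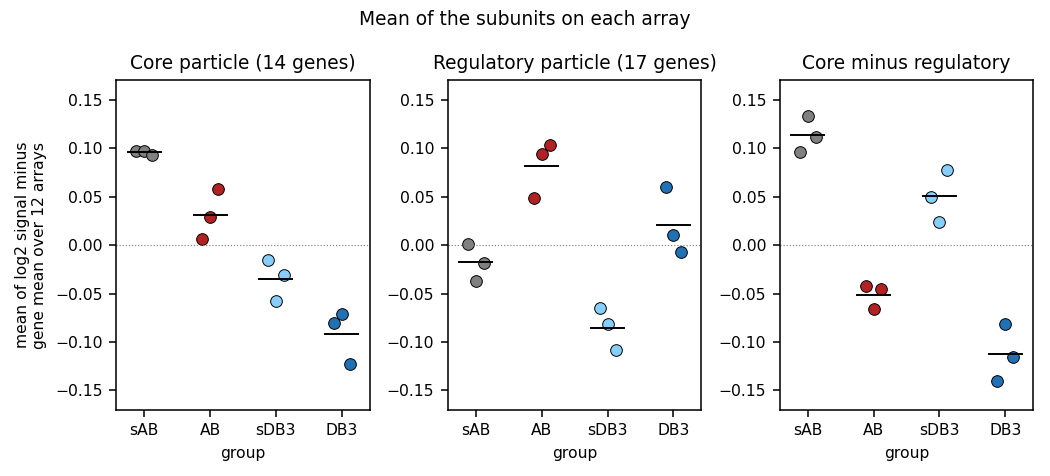
Mean over the core genes, mean over the regulatory genes and their difference on each array (log2 signal relative to each gene's mean over 12 arrays), by group; points are arrays and lines are group means (n = 3). In the right panel the sham arrays lie between 0.024 and 0.13 and the AB and DB3 arrays between -0.14 and -0.042.

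Taken alone, the core mean was 0.093 to 0.097 in sAB, 0.0059 to 0.058 in AB, -0.058 to -0.016 in sDB3 and -0.12 to -0.071 in DB3, which are 4 ranges without overlap. The regulatory mean was -0.037 to 0.0011 in sAB, 0.048 to 0.10 in AB, -0.11 to -0.065 in sDB3 and -0.0074 to 0.060 in DB3. These means carry the scaling of the arrays, whose median gene lay at -0.096 to -0.036 in sDB3 and at -0.018 to 0.041 over the other groups.

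Genes that work with the proteasome were read from lists by function. Of the activators and the inhibitor, 4 of 5 were tested. Psme1, a subunit of the ring that activates the core in place of the regulatory particle, had 12.13, 12.08 and 12.09 in sAB, 11.84, 11.59 and 11.75 in AB, 11.97, 12.13 and 12.01 in sDB3, and 11.91, 11.82 and 11.61 in DB3. Its AB arrays lay below both shams, and Psme1 fell by -0.37 ± 0.092 in AB against sAB (adjusted p = 0.0177) and by -0.31 ± 0.092 in AB against sDB3 (adjusted p = 0.0355). Psme4, a cap that opens the core without ubiquitin, fell by -0.26 ± 0.059 in DB3 against AB (adjusted p = 0.0225) and by -0.22 ± 0.059 in sDB3 against sAB (adjusted p = 0.0309). In DB3 against sDB3, 0 of the 4 passed, with 2 at an unadjusted limma p under 0.05. The fall of Psme1 against sAB was lost without sAB 1, AB 2 or AB 3 (adjusted p up to 0.0714), and that against sDB3 without AB 2, AB 3 or any sDB3 array (up to 0.127). That of Psme4 in DB3 against AB was lost without any AB array, DB3 2 or DB3 3 (up to 0.0903), and between the shams without sAB 1, sAB 2, sDB3 1 or sDB3 3 (up to 0.094) and with median centring (up to 0.219). Without the dim filter or with only the groups compared, the fall of Psme1 against sDB3 was lost too (up to 0.0646), as was that of Psme4 in DB3 against AB with only the groups compared (0.0514).

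Of the assembly factors, 8 of 9 were tested, the 3 chaperones above among them. In AB against sAB 0 passed, with 1 at an unadjusted limma p under 0.05, and in DB3 against sDB3 0 passed, with 1 at that level and a positive difference in all 8 (median 0.11), beside 69.2% positive and a median of 0.091 over all genes. In sDB3 against sAB 3 of the 8 fell, beside 12.3% of all genes. They were Psmd5, Psmd10 and Psmg3, which pairs alpha subunits and fell by -0.63 ± 0.15 (adjusted p = 0.0187). Of the other particle-associated proteins, 9 of 10 were tested, and the only call in any comparison of groups was Ecpas, a scaffold that holds core and regulatory particle together, which rose by 0.29 ± 0.064 in DB3 against sDB3 (adjusted p = 0.0312). The call of Psmg3 was lost without sDB3 2 (adjusted p = 0.0671), and that of Ecpas without sDB3 2, sDB3 3 or any DB3 array (up to 0.0806). Ecpas did not pass with quantile normalization (adjusted p = 0.063), median centring (0.15), only the groups compared or averaged probe sets, where its difference was 0.13 (0.491), and Psmg3 did not pass without the dim filter or with only the groups compared (up to 0.0787).

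All 3 immune subunits, which replace the catalytic subunits in cells exposed to interferon, were tested. Psmb9 had 6.71, 6.62 and 7.14 in sDB3, 8.31, 7.83 and 7.25 in DB3, 7.53, 7.68 and 7.63 in AB, and 7.48, 7.29 and 7.62 in sAB. It rose by 0.97 ± 0.23 in DB3 against sDB3 (adjusted p = 0.0357) and by 0.79 ± 0.23 in AB against sDB3 (adjusted p = 0.0315), and AB differed from sAB by 0.15 ± 0.23 (adjusted p = 0.692). Psmb10 rose by 0.44 ± 0.12 in AB against sDB3 (adjusted p = 0.0271), and Psmb8 passed in no comparison. The rise of Psmb9 in DB3 was lost without any AB array, sDB3 1, sDB3 2, DB3 1 or DB3 2 (adjusted p up to 0.0976), and in AB without any AB array, sDB3 1 or sDB3 2 (up to 0.101). That of Psmb10 was lost without AB 2, AB 3, sDB3 1 or sDB3 2 (up to 0.105). With quantile normalization or median centring, Psmb9 had an adjusted p of 0.0696 and 0.0511 in DB3 against sDB3 and of 0.0669 and 0.0565 in AB against sDB3, and Psmb10 did not pass (up to 0.0818). Without the dim filter or without moderation Psmb9 also passed in neither, and with only the groups compared not in DB3 against sDB3 (up to 0.147). The 6 macrophage markers, cells that express these subunits, had means of 7.69 to 7.83 in sDB3, 7.80 to 7.82 in DB3, 8.04 to 8.23 in AB and 7.84 to 8.78 in sAB. Their part was not tested.

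Genes that tag and deliver substrates came next. Of the ubiquitin genes and their E1 enzymes, 1 of 6 was tested: Uba6, an E1, which rose by 0.32 ± 0.071 in DB3 against sDB3 (adjusted p = 0.0326) and by 0.26 ± 0.071 in AB against sDB3 (adjusted p = 0.0253). The first was lost without sDB3 1, sDB3 2 or any DB3 array (up to 0.0857) and the second without AB 1, AB 2, sDB3 1 or sDB3 2 (up to 0.0954). With quantile normalization or median centring Uba6 passed in neither: its difference was 0.19 and 0.20 in DB3 against sDB3 (adjusted p = 0.185 and 0.146) and 0.11 and 0.13 in AB against sDB3 (0.349 and 0.258). Of the shuttles and the Vcp unfoldase with its cofactors, 12 of 14 were tested. AB had 5 of the 12 higher than sAB (12% of all genes) and 3 higher than sDB3 (17.3%). DB3 had 1 higher than sDB3 (5.37% of all genes), and sDB3 had 2 higher than sAB (5.49%). Ubxn1, a Vcp cofactor, had 10.25, 10.32 and 10.50 in sAB, 10.79, 11.00 and 10.93 in AB, 10.36, 10.37 and 10.25 in sDB3, and 10.97, 10.63 and 10.77 in DB3. Its banded and debanded arrays all lay above its sham arrays. It rose by 0.55 ± 0.10 in AB against sAB (adjusted p = 0.00442), by 0.58 ± 0.10 in AB against sDB3 (adjusted p = 0.00399) and by 0.46 ± 0.10 in DB3 against sDB3 (adjusted p = 0.031). The rises over sAB and sDB3 in AB held without any single array (up to 0.0222 and 0.02), and that of DB3 was lost without any sDB3 array, DB3 1 or DB3 3 (up to 0.0806) and with quantile normalization (0.0631), median centring (0.0782), no dim filter or only the groups compared (up to 0.11). The shuttle Ubqln2 rose by 0.29 ± 0.071 in AB against sAB (adjusted p = 0.0166) and by 0.40 ± 0.071 in sDB3 against sAB (adjusted p = 0.00621), the first lost without sAB 2, AB 1 or AB 3 (up to 0.0576). Rad23b, another shuttle, rose by 1.13 ± 0.065 in AB against sAB and by 0.91 ± 0.065 in sDB3 against sAB (adjusted p = 4.78e-06 and 4.36e-05). Its 3 sAB arrays lay at 9.68 to 9.76 and the other 9 at 10.58 to 10.89, a split also seen in the BioC control but not in BioB.

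All 11 regulators of proteasome genes were tested. AB had 1 of the 11 higher than sAB (12% of all genes) and 1 higher than sDB3 (17.3%). DB3 had 1 higher than sDB3 (5.37% of all genes), and sDB3 had 1 lower than sAB (12.3%). Nfe2l1, the main activator of proteasome subunit genes, had 9.84, 9.69 and 10.05 in sAB, 10.11, 9.97 and 10.04 in AB, 10.07, 10.06 and 10.07 in sDB3, and 10.26, 10.20 and 10.14 in DB3. Its sAB and AB arrays overlapped. Its difference was 0.18 ± 0.087 in AB against sAB (adjusted p = 0.171) and 0.13 ± 0.087 in DB3 against sDB3 (adjusted p = 0.366). Ngly1, the enzyme that removes sugars from Nfe2l1, rose by 0.42 ± 0.086 in AB against sDB3 (adjusted p = 0.00813) and fell by -0.31 ± 0.086 in sDB3 against sAB (adjusted p = 0.0331). Mafk, a binding partner of Nfe2l1, rose by 0.49 ± 0.13 in AB against sAB (adjusted p = 0.0219), and Bach1, a repressor at the same element, rose by 0.50 ± 0.10 in DB3 against sDB3 (adjusted p = 0.0275). Ngly1 kept its rise without any single array (up to 0.0311) and lost its fall without any sAB array or sDB3 2 (up to 0.0953) and with quantile normalization (0.0675), median centring (0.087), no dim filter or only the groups compared (up to 0.116). The call of Mafk was lost without sAB 1, sAB 2, AB 2 or AB 3 (up to 0.0852), and that of Bach1 without sDB3 1, sDB3 3, DB3 1 or DB3 2 (up to 0.0761). With quantile normalization, median centring, no dim filter or only the groups compared Bach1 did not pass (adjusted p = 0.0544 and 0.0689 for the scalings, up to 0.0966), and Mafk did not pass without the dim filter (0.0557).

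The median over genes of the SD within groups was 0.062 for the core, 0.071 for the regulatory particle and 0.13 over all 10435 genes. The members are brighter than most genes, with median log2 levels of 11.73 (core) and 11.58 (regulatory) against 8.01, so these spreads are not those of genes at a like level. Of the 35 tested members, 16 had more than 1 probe set above the limit. None of these had probe sets that passed in both directions in a comparison, and probe sets of opposite sign occurred in 5 of the 16 in AB against sAB and in 7 in DB3 against sDB3.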

How the data were processed

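RNA from the left ventricle of 12 mice (3 µg each, 1 array per mouse) was hybridised to Affymetrix arrays. The authors deposited log2 signals per probe set in a single table, made with GCRMA per the submitters' processing notes; the sources used here do not give its version, the genome build, or whether all arrays were normalized together. Of 45101 probe sets, 34945 carry 1 gene symbol in the platform annotation, 932 several, and 9224 none or are controls; only the first were used, with symbols updated through RefSeq. Differences were tested with limma 3.58.1 (R 4.3.3; lmFit and eBayes, 8 residual and 2.68 prior degrees of freedom) in 1 model of the 4 groups. Two-sided p-values were adjusted over 10435 genes (Benjamini-Hochberg) and measure the spread between these mice. With 3 arrays a group, exact permutation of a single gene could reach 0.1 at best.

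Replicate numbers are in accession order and pair nothing. The members and gene lists were chosen with earlier results of these data known, so no test over a list is given. Values per array are given for the catalytic subunits and, per comparison, for up to 4 core and 4 regulatory members with the largest difference among those that passed without overlap, plus the chaperones and up to 3 genes per list; per-array values of Psme1, Psmb9, Ubxn1 and Nfe2l1 were added after they were seen. The limma steps were tested on simulated data in which 200 of 10435 genes changed. In the comparisons of groups, 1% to 6% of changes of 0.25 were recovered, and 35% to 49% of changes of 0.5. For the difference of effects, 0% and 5% were recovered. False calls made up at most 15.4% of the calls, in DB3 against AB. A gene that did not pass here may therefore still differ by such amounts. Alternatives were other dim filters, averaged probe sets, quantile normalization, median centring, trended robust or no moderation, fits of only the groups compared, and leaving out each array. The lists were the activators and inhibitor, assembly factors, particle-associated proteins, immune subunits, ubiquitin genes, shuttles and the Vcp system, regulators, and markers of cell types.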

Additional observations from a re-analysis of the deposited data

Results flagged for a closer look

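Rad23b, a shuttle that carries ubiquitin-bearing proteins to the proteasome and no member of the particle, had an effect of DB3 over sDB3 that differed from its effect of AB over sAB by -0.99 on the log2 scale (limma adjusted p = 0.00064). Its signal was 9.76, 9.70 and 9.68 in sAB, 10.86, 10.87 and 10.82 in AB, 10.63, 10.58 and 10.68 in sDB3, and 10.73, 10.70 and 10.89 in DB3. The 3 sAB arrays are also those with a BioC control at 9.82 to 10.15, against 7.73 to 8.23 on the others, while the BioB control overlapped. The other probe sets of Rad23b gave 0.35 (adjusted p = 0.00851) and 0.18 (adjusted p = 0.138) in AB against sAB, against 1.13 for the probe set used. For the difference of effects they gave -0.34 (limma adjusted p = 0.0899) and -0.23 (adjusted p = 0.245), so neither passed. A part of BioC in this was not tested.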

How the results depend on the processing

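Of 68 values of single genes in a comparison, 51 of them calls, other settings gave 540 values: 112 lost the call, 9 gained one, and 0 turned sign among the called. Moderation and fits of only the groups compared leave a difference unchanged, so a sign could not turn there. Leaving out 1 array gave 816 values, with 212 calls lost, 1 gained and 0 turned. Quantile normalization gave 0 members higher in DB3 against sDB3, 1 higher and 1 lower in AB against sDB3 and 1 lower in DB3 against AB; its medians were 0.040 for the regulatory genes in AB against sAB, and 0.055 (core) and 0.14 (regulatory) in AB against sDB3. Median centring gave 2 higher in AB against sAB (medians -0.11 core, 0.021 regulatory), 0 higher and 1 lower in DB3 against sDB3 (-0.15, -0.0077), 1 higher and 2 lower in AB against sDB3 (-0.055, 0.041), 1 lower in DB3 against AB, and 2 higher and 1 lower in sDB3 against sAB (-0.044, 0.0025). The median of all genes moved by -0.12 (DB3 against sDB3) and -0.14 (AB against sDB3) with centring, and by 0.014 in DB3 against AB; the cause of these changes was not tested.

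Fitting only the groups compared, with fewer samples, gave 1 lower in AB against sAB, 0 higher in DB3 against sDB3, 3 higher in AB against sDB3, 0 lower in DB3 against AB, and 0 higher and 1 lower in sDB3 against sAB. Trended and robust moderation gave 1 lower in DB3 against sDB3, 12 higher and 1 lower in AB against sDB3, 4 lower in DB3 against AB, 1 lower in the difference of effects and 18 over the 4 groups. Analysis of variance without moderation, the model the study names, gave 1 lower in DB3 against sDB3, 11 higher and 1 lower in AB against sDB3, and 17 over the 4 groups. Without a dim filter 1 member was higher in DB3 against sDB3 and 1 lower in AB against sDB3, and a filter at 6 gave 1 lower in the latter. Averaged probe sets gave 1 higher in DB3 against sDB3, 1 higher in the difference of effects and a core median of -0.10 in sDB3 against sAB. The cause was not tested.

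Without single arrays, AB against sAB had 1 to 4 higher, 0 to 3 lower and medians of -0.073 to -0.034 (core) and 0.054 to 0.096 (regulatory). DB3 against sDB3 had 0 to 1 higher and medians of -0.037 to -0.028 and 0.077 to 0.14. AB against sDB3 had 1 to 7 higher, 0 to 1 lower and medians of 0.073 to 0.11 and 0.16 to 0.20. DB3 against AB had 0 to 2 lower and medians of -0.15 to -0.10 and -0.088 to -0.018. The shams had 0 to 1 higher, 2 to 8 lower and medians of -0.16 to -0.11 and -0.085 to -0.048. The 4 groups gave 7 to 11. The difference between core and regulatory means kept its direction in all 8 alternatives in each comparison. Only averaged probe sets and quantile normalization could change its value. Median centring, moderation and fits of only the groups compared leave it as it is, and the dim filters kept the same probe sets. With quantile normalization it was -0.16 in AB against sAB and in DB3 against sDB3. No paired analysis was possible because the labels carry no replicate numbers. Only 3 arrays per group limit the precision, and most differences here are below 0.3 on the log2 scale.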
